A study of Saccharomyces cerevisiae with 72 samples.

Results

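Loss of the checkpoint kinase Tel1 in budding yeast that already lacks its relative Mec1 was examined through the messenger RNA response to methyl methanesulfonate (MMS), an alkylating agent that methylates DNA. The 4 arrays of the strain tel1mec1 were set against the 4 arrays of the strain mec1, 8 of the 72 arrays of the series and of the 52 arrays that share one table of 13 strains. The arrays were taken by their strain label. Both strains have the BY4741 background, a haploid MATa laboratory strain that lacks HIS3, LEU2, MET17 and URA3. By their strain labels the tel1mec1 strain lacks TEL1 and MEC1 and the mec1 strain lacks MEC1. In each strain a treated culture received MMS for 1 h, at 0.03% by the growth text of the labels and 0.033% by the treatment text, and an untreated culture of the same strain served as its partner on the array. The strain tel1, which lacks TEL1 alone, and wild type (wt) were treated in the same way and gave the effect of losing Tel1 while Mec1 was present. Cells without MEC1 normally survive only when the ribonucleotide reductase inhibitor Sml1 is removed as well, and the labels do not say whether tel1mec1 and mec1 lack SML1. Each strain stands for 1 deletion genotype. The labels name no separate cultures for the replicates. The p-values therefore measure only how far these samples vary, and that variation may be technical.

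Mec1 and Tel1 are large protein kinases, the yeast counterparts of human ATR and ATM. Mec1 is recruited to single-stranded DNA at stalled replication forks and at resected breaks, and Tel1 to broken DNA ends and to telomeres. Both can activate Rad53, which through Dun1 lifts repression of the ribonucleotide reductase (RNR) genes, and both help to hold the cell cycle while damage remains. In cells with Mec1, loss of Tel1 is known to have a mild effect on survival of DNA damage.

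Every value below is the log2 ratio of treated over untreated RNA within a strain, called its response, or a difference between such responses. A difference of 1 is a 2-fold change. Arrays of each strain with opposite dyes that share a replicate number were averaged, which gave 2 replicates per strain. Single-array values are listed as replicate 1 with MMS in Cy5, replicate 1 with MMS in Cy3, replicate 2 with MMS in Cy5 and replicate 2 with MMS in Cy3. Since both channels of an array held the same strain, the ratios cannot check a deletion or the level of a cell type marker. TEL1 had -0.34 to 0.09 on the tel1mec1 arrays and -0.26 to 0.13 on the mec1 arrays, and MEC1 had -0.25 to 0.23 on the tel1mec1 arrays and -0.56 to 0.23 on the mec1 arrays.

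The number of arrays limits the precision, and the median half-width of the 95% interval of a difference was 0.279. Across genes, which are no independent points, the replicates had r of 0.850 in tel1mec1 and 0.896 in mec1. Single arrays correlated with r of 0.581 to 0.879 within tel1mec1, 0.742 to 0.858 within mec1 and 0.518 to 0.786 between the strains. The mec1 replicate 1 array with MMS in Cy5 stood apart: the SD of its values was 0.607. The tel1mec1 arrays had SDs of 0.337 to 0.424 and the other mec1 arrays 0.408 to 0.420. The general stress, trehalose, heat shock and ribosome biogenesis results are given with and without it. The 8 arrays lay on 5 slides, and 1 slide held both strains, with the tel1mec1 replicate 2 array with MMS in Cy3 and a pair of mec1 arrays.

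Among the genes of 30 lists examined, 3 groups stood out in the difference between tel1mec1 and mec1. Cell separation genes fell less in tel1mec1 than in mec1, HUG1 and RNR3 fell where they rose in mec1, and many stress genes rose less or not detectably. In all, 133 of 5594 genes, or 2.38%, differed between tel1mec1 and mec1 at an adjusted p under 0.05 (limma, Benjamini-Hochberg over all genes). Of these, 37 were higher in tel1mec1 (0.661%) and 96 were lower (1.72%), and 36 differed at least 2-fold, 14 higher and 22 lower. Many belonged to no list, namely 12 of the 37 called higher and 67 of the 96 called lower. Leaving out tel1mec1 replicate 1 or 2 gave 55 and 30 calls, and leaving out mec1 replicate 1 or 2 gave 28 and 230. Without the single mec1 array that stood apart there were 83. The losses fell mostly on the genes called lower: 86 of the 96 and 21 of the 37 called higher lost their call without mec1 replicate 1, and 83 and 20 did without tel1mec1 replicate 2. Against 0, 1789 genes (32%) changed under MMS in tel1mec1, 974 up (17.4%) and 815 down (14.6%), and 2455 (43.9%) in mec1, 1321 up (23.6%) and 1134 down (20.3%). The plot of the response in tel1mec1 against that in mec1 shows that the called genes lie mostly between the diagonal and the line of no response.

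**Figure D1:**
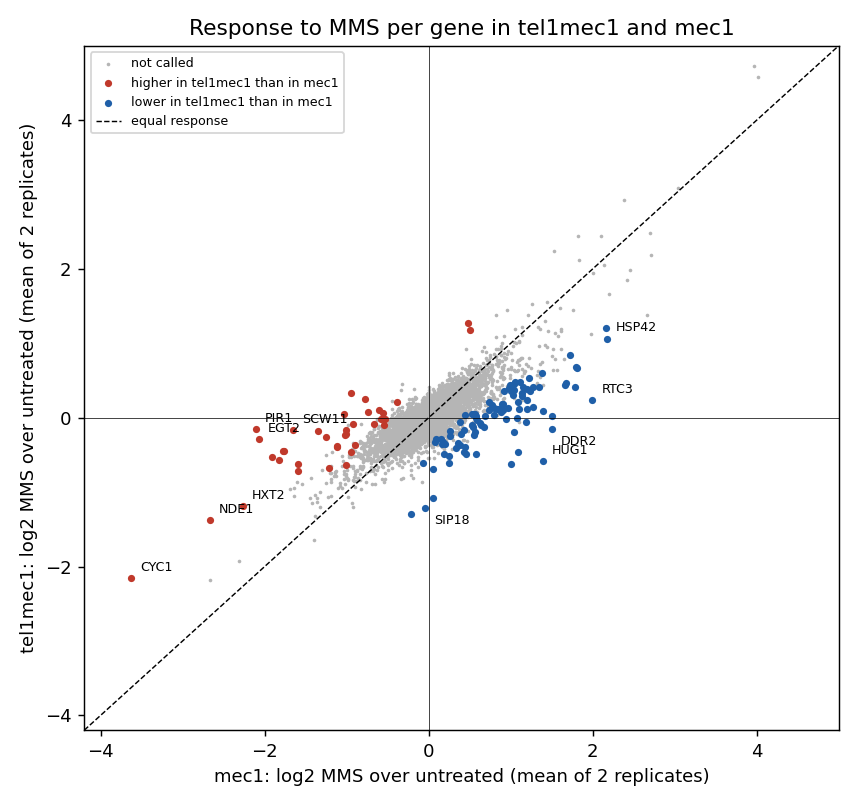
Response per gene, as log2 MMS over untreated (mean of 2 replicates), in tel1mec1 on the vertical axis and mec1 on the horizontal axis, for 5594 genes. Red points are the 37 genes called higher in tel1mec1, blue points the 96 called lower, grey points the rest, and the dashed line marks equal responses; most red points have negative values in mec1 and most blue points positive ones.

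Among the 37 genes called higher, the median response was -0.22 in tel1mec1 and -1.02 in mec1. Of them, 16 fell under MMS in both strains, 19 fell in mec1 with no call in tel1mec1, and 2 rose in both. These are YKL070W and MF(ALPHA)2, the second of which encodes a form of the alpha pheromone. For the 96 genes called lower the medians were 0.05 in tel1mec1 and 0.86 in mec1. They comprised 48 genes that rose in mec1 with no call in tel1mec1, 23 that rose in both, 11 that fell in tel1mec1 and rose in mec1, and 14 that fell in tel1mec1 with no call in mec1. Because the mec1 values also enter the difference, these counts describe the genes and test nothing. In wt, which shares no array with the comparison, 32 of the 37 fell and 88 of the 96 rose under MMS, where 25.4% of all genes fell and 26.8% rose. As 35 of the 37 fell and 82 of the 96 rose in mec1 already, the wt counts are a description as well. All 4 tel1mec1 arrays lay beyond all 4 mec1 arrays for 31 of the 37 and 86 of the 96. The share of all genes was 3.91% above and 6.26% below, but the same 8 arrays made the calls, so the counts restate the selection and test nothing.

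The slide that held both strains carried 1 tel1mec1 array, with MMS in Cy3, and a pair of mec1 arrays with MMS in either dye. The difference there was taken between the tel1mec1 array and the mec1 replicate 1 array, both with MMS in Cy3. Its median was 0.96 for the genes called higher and -0.75 for those called lower, where all 8 arrays gave 0.85 and -0.75. Since both arrays are among those that made the calls, the values are no check on the slide. With the slide as a random block 113 genes were called. With the slide as a fixed block, in which few arrays link the strains, the counts were 74 with the array pair as a random block and 3 without it, and the last setting was chosen after seeing the data. The 3 genes were EGT2 and NDE1, both higher, and DUG3, which was lower and was not called otherwise. Over the slides, strain and slide can therefore be separated only in part.

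Genes of the RNR system come first, as the best known targets of the pathway. HUG1 (YML058W-A) encodes a small inhibitor of ribonucleotide reductase and RNR3 (YIL066C) its damage-inducible large subunit. On the tel1mec1 arrays HUG1 had -0.47, -0.80, -0.52 and -0.51, and on the mec1 arrays 1.14, 1.53, 1.58 and 1.32. All 4 tel1mec1 arrays were below 0 and all 4 mec1 arrays above it, so the groups did not overlap. Over all genes, 350 of 5594 (6.26%) had every tel1mec1 array below every mec1 array. The difference in HUG1 was -1.97 (SE 0.14), 3.91-fold, with an adjusted p of 3.75e-08 (limma). Between the arrays with MMS in Cy3 on the shared slide it was -2.04. RNR3 had -0.51, -0.91, -0.52 and -0.53 on the tel1mec1 arrays and 0.93, 1.19, 1.03 and 0.86 on the mec1 arrays. It too was negative on every tel1mec1 array and positive on every mec1 array, with a difference of -1.62 (SE 0.15, limma adjusted p 1.08e-06). Both genes fell in tel1mec1 by the test against 0 and rose in mec1. Under the fixed slide block without the array pair the differences were -1.95 in HUG1 and -1.63 in RNR3, about as large, with an adjusted p of 0.0807 for both in limma. Over 20 alternatives neither difference was smaller in size than -1.85 in HUG1 and -1.49 in RNR3.

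The other subunits of the enzyme had smaller differences. RNR2, a small subunit, averaged -0.41 ± 0.26 in tel1mec1 and 0.29 ± 0.08 in mec1 (SD, n = 2 each), a difference of -0.70 with an adjusted p of 0.25 in limma. RNR1, the large subunit, averaged -0.61 ± 0.12 in tel1mec1 and -0.16 ± 0.06 in mec1, and RNR4, the other small subunit, -0.20 ± 0.19 in tel1mec1 and 0.18 ± 0.05 in mec1. Neither was called, with differences of -0.45 (95% interval -0.93 to 0.04) and -0.38 (-1.27 to 0.50). DIF1, which regulates the nuclear import of the small subunits, had a difference of -0.36 and was not called either. In each of these 4 genes all tel1mec1 arrays were below all mec1 arrays, as in 6.26% of all genes. RFX1, which encodes the repressor Crt1, and SML1 had differences of -0.23 and 0.07. Of the 8 members of the list, 2 were called, both lower, where 1.72% of all genes were called lower. The median difference was -0.41, against 0.0035 over all genes.

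**Figure D2:**
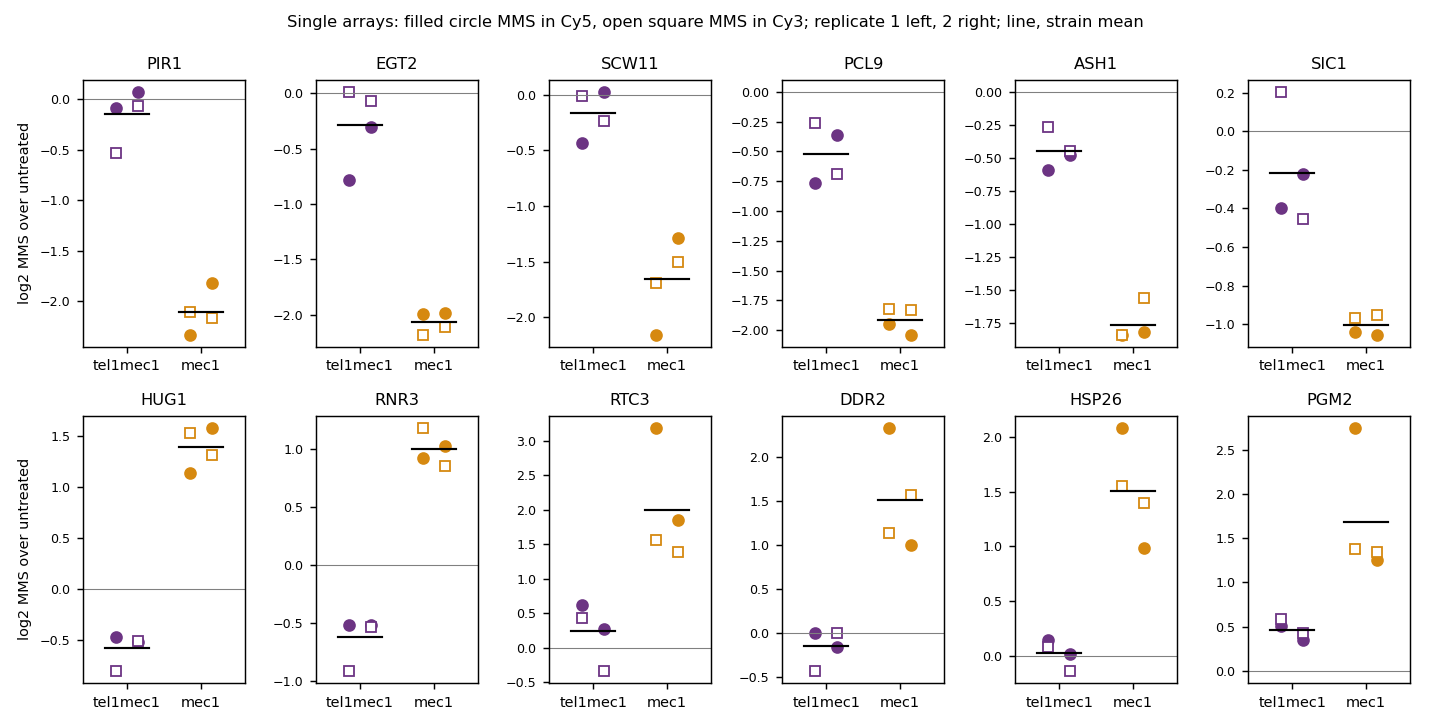
Log2 MMS over untreated on each array for 12 genes, tel1mec1 to the left of mec1 in each panel. Filled circles are arrays with MMS in Cy5 and open squares arrays with MMS in Cy3, replicate 1 stands left and replicate 2 right, and the line is the strain mean; in RTC3, DDR2, HSP26 and PGM2 the replicate 1 mec1 array with MMS in Cy5 lies above the other mec1 arrays.

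Cell separation genes gave the highest differences. Late in mitosis and early in G1 the transcription factor Swi5 helps to turn on genes for digesting the septum between mother and daughter cell and for entering G1. Of 21 measured members of a list of such genes, 14 were called higher in tel1mec1, by 1.72-fold to 3.88-fold, 0 were called lower, and the median difference was 0.85. Over all genes 0.661% were called higher and 1.72% lower. The list's median response was -0.18 in tel1mec1, -1.004 in mec1, -1.01 in tel1 and -0.998 in wt. By array it was -0.40 to -0.05 in tel1mec1 and -1.04 to -0.97 in mec1, so the array that stood apart in its spread did not do so here.

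PIR1 (YKL164C), a cell wall mannoprotein, had -0.08, -0.53, 0.07 and -0.06 on the tel1mec1 arrays and -2.33, -2.11, -1.82 and -2.17 on the mec1 arrays. The difference of 1.96 (SE 0.24, limma adjusted p 5.37e-05) was the highest of the comparison. EGT2 (YNL327W), a wall protein needed for proper cell separation, had -0.79, 0.01, -0.30 and -0.07 on the tel1mec1 arrays and -1.99, -2.18, -1.98 and -2.11 on the mec1 arrays. Its tel1mec1 arrays varied widely, yet the lowest of them lay above every mec1 array, and the difference was 1.78 (SE 0.21, limma adjusted p 4.38e-05). SCW11 (YGL028C), a wall protein like glucanases, had -0.43, -0.01, 0.03 and -0.23 on the tel1mec1 arrays and -2.15, -1.69, -1.28 and -1.50 on the mec1 arrays. Here the mec1 arrays varied more, and the difference was 1.50 (SE 0.14, limma adjusted p 2.22e-06). DSE4 (YNR067C), a glucanase of the daughter cell, averaged -0.44 ± 0.07 in tel1mec1 and -1.78 ± 0.05 in mec1, and the daughter-cell genes DSE3 and DSE1 differed by 1.17 and 1.03. CHS1, the chitin synthase that repairs the septum, and PRY3, a wall protein, differed by 0.85 and 0.85 and were called as well.

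Regulators of the same transition moved with the wall genes. ASH1 (YKL185W), a repressor that acts in daughter cells, had -0.59, -0.26, -0.48 and -0.45 on the tel1mec1 arrays and -1.84, -1.84, -1.82 and -1.56 on the mec1 arrays. The difference was 1.32 (SE 0.11, limma adjusted p 2.27e-07), and ASH1 still fell in tel1mec1 by the test against 0. PCL9 (YDL179W), a cyclin of the kinase Pho85, averaged -0.52 ± 0.01 in tel1mec1 and -1.91 ± 0.03 in mec1, with the lowest adjusted p among the higher genes named here, 4.17e-08 in limma. SIC1, the inhibitor of S-phase cyclin kinase, averaged -0.22 ± 0.17 in tel1mec1 and -1.004 in mec1. AMN1, which antagonises mitotic exit, NIS1, a bud neck protein, and RME1, a repressor of meiosis, differed by 0.89, 0.97 and 0.81. Further genes outside the list, AIM44 (YPL158C), a bud neck protein, and SUN4 (YNL066W), a wall protein of septation, differed by 1.25 and 0.98. Without the mec1 array that stood apart SUN4 lost its call, with a difference of 0.80 and a limma adjusted p of 0.11. Without mec1 replicate 1, or either tel1mec1 replicate, SUN4 and PRY3 were not called, and NIS1 was not called without mec1 replicate 1.

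The members without a call were CTS1, DSE2, PIR3, CIS3, PCL2, FAA3 and CYK3. CTS1, the chitinase that acts on the septum, averaged -0.06 ± 0.05 in tel1mec1 and -0.28 ± 0.13 in mec1 and was thus near 0 in both strains. PIR3 and CIS3, wall proteins related to PIR1, had differences of -0.33 and -0.28. CYK3, a cytokinesis protein, missed the threshold with a difference of 0.46 and an adjusted p of 0.0517 in limma. Leaving out 1 replicate of either strain left 12 to 14 of the 21 called, and 14 were called without the mec1 array that stood apart. The fixed slide block gave 8 with the array pair and 1 without it, with median differences of 0.85 and 0.73.

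Genes of the preceding mitotic wave held no call. The CLB2 cluster holds the mitotic cyclin CLB2, the anaphase activator CDC20 and other genes of G2 and M phase. None of its 17 measured members was called in either direction, and the median difference was -0.01, with a range of -0.23 to 0.27. Median responses of the cluster were -0.18 in tel1mec1, -0.19 in mec1, -0.98 in tel1 and -1.05 in wt, so both strains without Mec1 stood nearer to 0 than both strains with it. CLB2 itself averaged -0.59 ± 0.19 in tel1mec1 and -0.56 ± 0.11 in mec1. Among G1/S genes of the factor MBF 1 of 27 was called higher, the replication licensing gene CDC6 (0.49), and 1 lower, the forkhead gene PLM2 (-0.74). Neither was called without mec1 replicate 1 or without either tel1mec1 replicate, and CDC6 had 0.33 without the mec1 array that stood apart (limma adjusted p 0.15). G1/S genes of SBF had 0 of 14 called and histone genes 0 of 10.

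**Figure D3:**
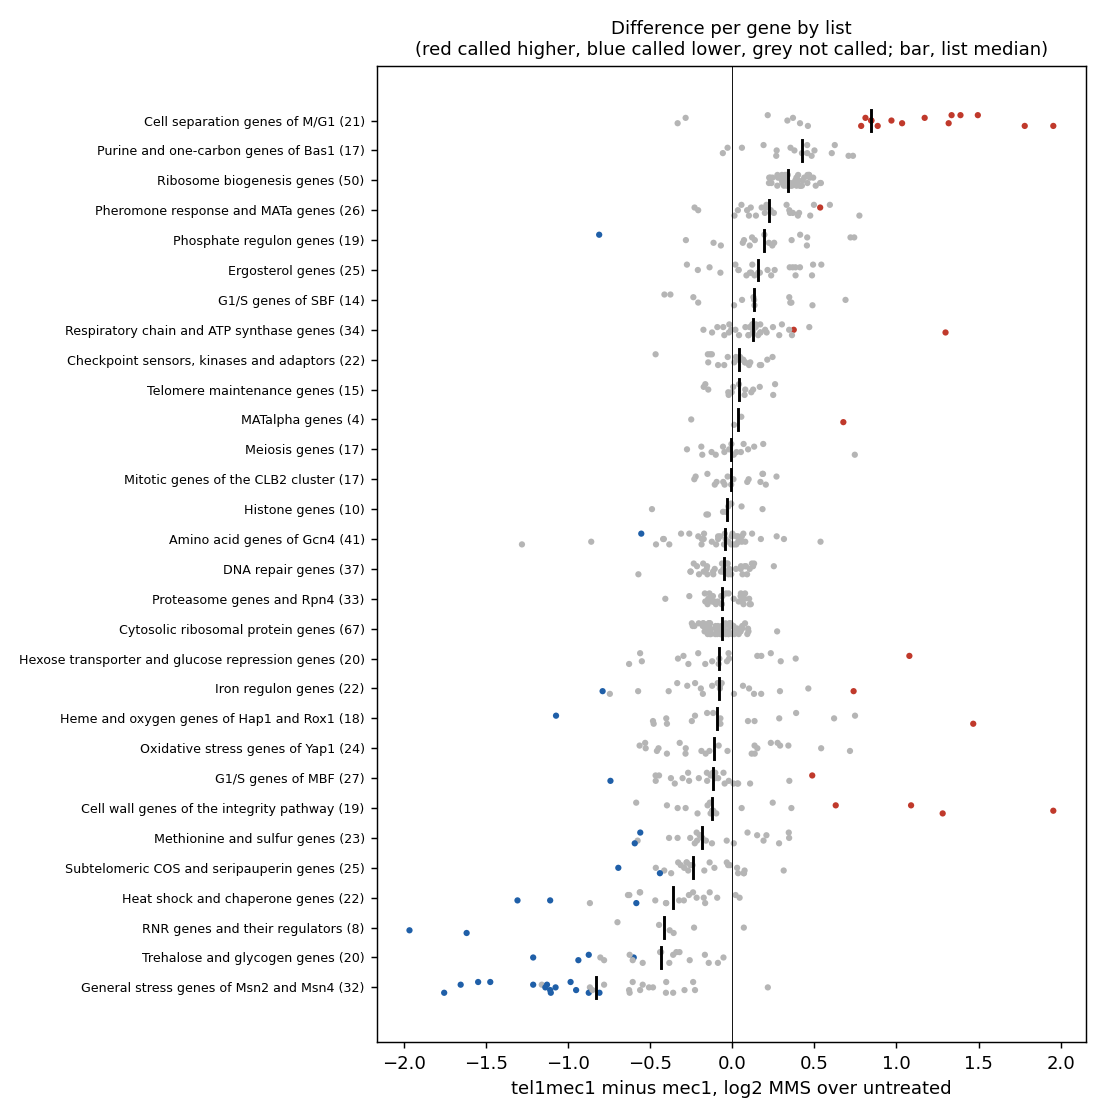
Difference in response, tel1mec1 minus mec1 in log2, for each measured member of 30 gene lists, with the number of members in parentheses. Red and blue points were called higher and lower, grey points were not called, and the black bar is the list median; cell separation genes stand at the top with 14 red points and general stress genes at the bottom with 14 blue points.

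Among the lists, general stress genes held the most members lower in tel1mec1. The factors Msn2 and Msn4 induce a broad set of genes for chaperones, storage sugars and redox enzymes under many stresses. Of 32 listed members 14 were called lower, by 1.75-fold to 3.38-fold, 0 were called higher, and the median difference was -0.83. Over all genes 1.72% were called lower and 0.661% higher. Median responses were 0.20 in tel1mec1, 1.07 in mec1, 0.89 in tel1 and 1.37 in wt. This group moves with the array that stood apart: the list's median was 2.02 on that array, 0.68 to 0.90 on the other 3 mec1 arrays and -0.00021 to 0.28 on the tel1mec1 arrays. Without that array the median difference was -0.46 and 9 members were called lower, and without mec1 replicate 1 as a whole 1 was. The counts were 8 and 3 without tel1mec1 replicate 1 and 2, 21 without mec1 replicate 2, and 3 and 0 with the fixed slide block.

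RTC3 (YHR087W), a stress-induced protein, had 0.62, 0.43, 0.27 and -0.34 on the tel1mec1 arrays and 3.19, 1.57, 1.85 and 1.39 on the mec1 arrays. The groups did not overlap with or without the value of 3.19, and the difference was -1.76 (SE 0.24, limma adjusted p 0.000224), or -1.35 without that array. HSP26 (YBR072W), a small heat shock protein, had 0.15, 0.08, 0.02 and -0.13 on the tel1mec1 arrays and 2.08, 1.55, 0.99 and 1.40 on the mec1 arrays. Its difference was -1.48 (SE 0.28, limma adjusted p 0.00519), or -1.34 without the array. DDR2 (YOL052C-A), a small stress protein, averaged -0.15 ± 0.09 in tel1mec1 and 1.51 ± 0.31 in mec1, a difference of -1.66 and of -1.36 without the array. PGM2 (YMR105C), a phosphoglucomutase that feeds glycogen and trehalose synthesis, had 0.51, 0.59, 0.34 and 0.43 on the tel1mec1 arrays and 2.75, 1.38, 1.25 and 1.34 on the mec1 arrays. The difference of -1.21 became -0.87 without the array, and both were called. FMP16 (YDR070C), a mitochondrial protein, and TFS1 (YLR178C), an inhibitor of carboxypeptidase Y, differed by -1.55 and -1.14 and stayed called without the array, at -1.23 and -0.98. Without mec1 replicate 1 as a whole HSP26, DDR2, PGM2, FMP16 and TFS1 were not called, with limma adjusted p of 0.057 to 0.18, while RTC3 still was. Without tel1mec1 replicate 2 the calls of HSP26, DDR2 and TFS1 were lost, with p of 0.054 to 0.10, and without tel1mec1 replicate 1 that of DDR2, with 0.068.

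Other genes lower in tel1mec1 rested on that array more heavily. HSP30 (YCR021C), a stress protein of the plasma membrane, had 3.30 on it and 0.56 to 1.17 on the other 3 mec1 arrays. Its difference of -1.31 became -0.63 without the array and was no longer called, with an adjusted p of 0.11 in limma. TMA10 (YLR327C), a ribosome-associated protein, had 3.46 against 1.02 to 1.44, and its difference moved to -0.77 from a called -1.38, with an adjusted p of 0.21. EGO4 (YNR034W-A), YNR014W and ROQ1 (YJL144W), the last a regulator of protein quality control, differed by -1.24, -1.24 and -1.23. They remained called without the array, at -0.73, -0.82 and -0.72, but EGO4 and ROQ1 were not called without mec1 replicate 1 or without tel1mec1 replicate 2. HSP12, a membrane-associated stress protein, averaged -0.06 ± 0.01 in tel1mec1 and 1.10 ± 0.22 in mec1 and was not called (limma adjusted p 0.29). Its 4 tel1mec1 arrays lay below the 4 mec1 arrays, as in 6.26% of all genes.

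Related lists held fewer calls, beside 1.72% of all genes called lower. Among trehalose and glycogen genes 4 of 20 were lower and the median difference was -0.44, with PGM2, GAC1, a glycogen phosphatase subunit (-0.94), and TSL1, a trehalose synthase subunit (-0.88), at the low end. Without the mec1 array that stood apart 1 of the 20 was called and the median was -0.20, with GAC1 and TSL1 at -0.45 and -0.45 and no longer called (limma adjusted p 0.24 and 0.21). The list had 0 calls without mec1 replicate 1 and 10 without mec1 replicate 2, where GAC1 and TSL1 had -1.44 and -1.33, and 1 without either tel1mec1 replicate. In the heat shock list 3 of 22 were lower, namely HSP30, the Hsp70 gene SSA4 (-1.11) and the Hsp90 cochaperone AHA1 (-0.59), with a median of -0.36. Without that array 1 was called, SSA4 at -1.02, the median was -0.17, and AHA1 had -0.45 (limma adjusted p 0.097). The count was 0 without mec1 replicate 1 or tel1mec1 replicate 2 and 7 without mec1 replicate 2. Oxidative stress genes of Yap1 and proteasome genes with their activator Rpn4 had 0 of 24 and 0 of 33 called, with median differences of -0.11 and -0.07. Proteasome genes had median responses of 0.75 in tel1mec1 and 0.82 in mec1, and all 33 rose in both strains by the test against 0.

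A pair of hydrophilins, small proteins linked to drying and osmotic stress, fell in tel1mec1 and had no call in mec1. SIP18 (YMR175W) had -1.07, -1.36, -1.08 and -1.33 on the tel1mec1 arrays and -0.12 to -0.00034 on the mec1 arrays. It averaged 0.64 in tel1 and 0.58 in wt, and the difference between tel1mec1 and mec1 was -1.17 (SE 0.18, limma adjusted p 0.000726). GRE1 (YPL223C), its paralog, had -0.83, -1.45, -0.97 and -1.04 on the tel1mec1 arrays and -0.02 to 0.10 on the mec1 arrays, a difference of -1.13 (SE 0.26, limma adjusted p 0.0228). GRE1 averaged 0.41 in tel1 and 0.65 in wt. Both genes were thus near 0 in mec1 and negative on every tel1mec1 array. DAN1 (YJR150C), a wall mannoprotein of anaerobic cells, had -1.25, -1.78, -1.05 and -1.10 on the tel1mec1 arrays and -0.65 to -0.01 on the mec1 arrays and was called lower by 1.07. SIP18 was called with any 1 replicate of either strain left out, whereas GRE1 and DAN1 were called only in the case without mec1 replicate 2, with adjusted p of 0.12 to 0.21 and 0.063 to 0.37 in limma in the other 3 cases.

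A smaller set of respiratory and transport genes fell less in tel1mec1. CYC1 (YJR048W), cytochrome c, had -2.11, -2.24, -1.90 and -2.37 on the tel1mec1 arrays and -3.07, -4.10, -3.38 and -3.95 on the mec1 arrays. It fell on all 8 arrays, and the difference was 1.47 (SE 0.27, limma adjusted p 0.00461). NDE1 (YMR145C), a mitochondrial NADH dehydrogenase, averaged -1.37 ± 0.23 in tel1mec1 and -2.67 ± 0.10 in mec1, a difference of 1.30. HXT2 (YMR011W), a hexose transporter, averaged -1.19 ± 0.18 in tel1mec1 and -2.27 ± 0.22 in mec1, a difference of 1.08 with an adjusted p of 0.0405 in limma. These 3 differences depended on the scaling: under quantile normalization they were 0.44 in CYC1, 0.60 in NDE1 and 0.49 in HXT2, none called, with limma adjusted p of 0.37, 0.34 and 0.42. With the arrays scaled to a common spread CYC1 and NDE1 had 1.53 and 1.42 and were not called (limma adjusted p 0.19 and 0.059). All 3 also lost their call without mec1 replicate 1 and without tel1mec1 replicate 2, and HXT2 without tel1mec1 replicate 1. The lists around these genes held few calls. Of 34 respiratory chain and ATP synthase genes 2 were called higher, against 0.661% of all genes. These were NDE1 and COX12, the second also not called under either scaling. Among 18 heme and oxygen genes 1 was called higher and 1 lower, DAN1, with a list median of -0.095. Among 20 hexose transporter and glucose repression genes 1 was called higher, with a list median of -0.08. In the cell wall list 4 of 19 were higher, PIR1, NCW2 (1.28), PST1 (1.09) and CRH1 (0.63), all wall proteins, while the list median was -0.12. PST1 and CRH1 were not called without mec1 replicate 1 or without tel1mec1 replicate 2, and PST1 not without tel1mec1 replicate 1.

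Several lists had no call. Of 50 ribosome biogenesis genes 0 were called, yet all 50 differences were positive, at 0.22 to 0.54, with a median of 0.34 against 0.0035 for all genes. The median response was -0.16 in tel1mec1 and -0.53 in mec1. That median difference was 0.23 without the mec1 array that stood apart, 0.15 without mec1 replicate 1, 0.18 with the fixed slide block alone and 0.56 without mec1 replicate 2, where 5 members were called higher. Purine and one-carbon genes of Bas1 had 0 of 17 called and a median of 0.42, with ADE1, an enzyme of purine synthesis, at 0.73 (limma adjusted p 0.079). Checkpoint genes (0 of 22), telomere maintenance genes (0 of 15), DNA repair genes (0 of 37) and cytosolic ribosomal protein genes (0 of 67) had median differences of 0.04, 0.04, -0.05 and -0.07. DUN1, the kinase below Rad53, had 0.05 ± 0.12 in tel1mec1 and 0.52 ± 0.10 in mec1 and was not called, with a difference of -0.47. A missed threshold does not show that the strains responded alike. Each gene is bounded only by its own interval, which can be wider than the median half-width given above, as in RNR1 and RNR4.

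The next question was whether losing Tel1 acted differently without Mec1 than with it. Between tel1 and wt 0 of 5594 genes were called by limma, or 0%, and 283 had an unadjusted p under 0.05, against 774 between tel1mec1 and mec1. The 283 genes are close to the share of 0.05 that such a threshold passes where no gene differs. The test of the difference itself, (tel1mec1 minus mec1) minus (tel1 minus wt), called 22 genes, or 0.393%, of which 14 were higher (0.25%) and 8 lower (0.143%). Scaling the arrays to a common spread gave 46 genes, 23 higher and 23 lower, and quantile normalization gave 39, 18 higher and 21 lower, so the balance of directions depends on the scaling. The count was 8 or 12 without tel1mec1 replicate 1 or 2, 7 without mec1 replicate 1, 14 without tel1 replicate 2 and 9 with the 4 strains fitted alone. As this quantity contains the difference described above, it is no second line of evidence for it. The labels do not say whether the strains without MEC1 also lack SML1. In this test the loss of Mec1 alone therefore cannot be told apart from the loss of both.

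Cell separation genes made up most of the higher side. Of their 21 members 12 were called in this test, all higher, against 0.25% of all genes. The list's median difference between tel1 and wt was 0.02. SCW11 led with 1.79 (SE 0.20, limma adjusted p 5.56e-05). Its replicates stood at -0.22 and -0.10 in tel1mec1 and -1.92 and -1.39 in mec1, and at -1.69 and -1.66 in tel1 and -1.37 and -1.40 in wt. Only the tel1mec1 replicates of these 4 strains were near 0. EGT2 (1.72, adjusted p 0.00705 in limma), PIR1 (1.69, 0.0227), DSE3 (1.38, 0.000577) and NCW2 (1.37, 0.0206) followed. Over 22 alternatives the call was lost in 8 for PIR1, 8 for NCW2, 5 for EGT2, 2 for SCW11 and 2 for DSE3.

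**Figure D4:**
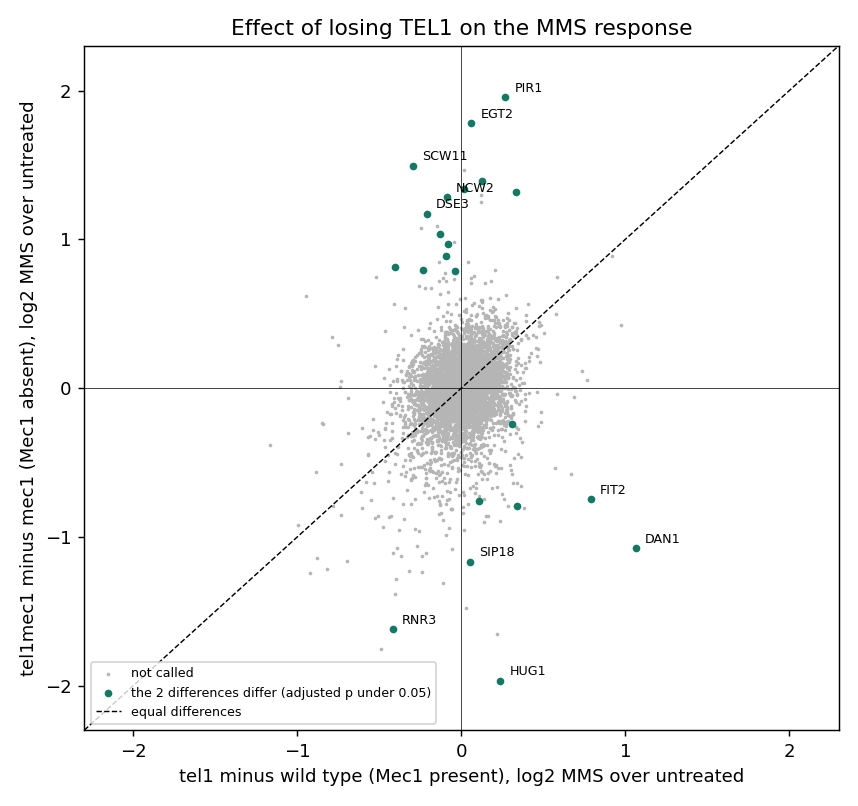
Effect of losing TEL1 on the response of each gene, in log2, without Mec1 (tel1mec1 minus mec1) on the vertical axis and with Mec1 (tel1 minus wt) on the horizontal axis. Green points are the 22 genes for which the difference between the effects was called and the dashed line marks equal effects; the labelled cell separation genes lie high near 0 on the horizontal axis, and HUG1 lies lowest.

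HUG1 had the lowest value of this test, -2.21 (SE 0.19, limma adjusted p 2.23e-06). Its replicates stood at -0.64 and -0.52 in tel1mec1 and 1.33 and 1.45 in mec1, and at 4.36 and 4.25 in tel1 and 4.15 and 3.99 in wt. With Mec1 present the responses of HUG1 in tel1 and wt differed by 0.24 (SE 0.14, limma adjusted p 0.96). RNR3 gave -1.20 (SE 0.21, limma adjusted p 0.00705), with 3.63 and 4.02 in the tel1 replicates and 4.29 and 4.19 in the wt replicates. SIP18 gave -1.22 (adjusted p 0.0282 in limma). Over 22 alternatives the call was lost in 10 for SIP18, in 6 for RNR3 and in 1 for HUG1. DAN1 and FIT2, a wall protein that retains iron siderophores, gave -2.14 and -1.54, and here both differences entered, with opposite signs. DAN1 averaged 0.21 in tel1 and -0.86 in wt, a difference of 1.07 (limma adjusted p 0.54), and FIT2 averaged 2.08 in tel1 and 1.29 in wt, a difference of 0.79 (limma adjusted p 0.89). FIT2 was not called between tel1mec1 and mec1 (-0.75, limma adjusted p 0.095) and lost its call in the present test without the mec1 array that stood apart. No general stress gene was called in this test, where the list had a median of -0.40 and a median difference of -0.35 between tel1 and wt.

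Across the 13 strains of the table, the double mutant stood at or near one end for these genes. The cell separation list had its median nearest to 0 in tel1mec1 (-0.18), followed by chk1rad53 (-0.34), rad53 (-0.55) and dun1rad53 (-0.60), while mec1 (-1.004) lay with the 8 strains that keep RAD53 and 1 sensor kinase or more, at -1.01 to -0.74. EGT2 averaged -0.28 in tel1mec1, -0.38 in chk1rad53, -0.86 in dun1rad53 and -1.12 in rad53, against -2.07 in mec1 and -1.94 in wt. HUG1 averaged -0.58 in tel1mec1, -0.56 in rad53, -0.47 in chk1rad53 and -0.44 in dun1rad53, against 1.39 in mec1, 1.49 in dun1 and 0.92 in chk1dun1. General stress genes had medians of 0.20 in tel1mec1, 0.23 in rad53, 0.25 in dun1rad53 and 0.20 in chk1rad53, against 1.07 in mec1. These are descriptions, with no test between the other strains, and 1 array of chk1rad53 had a low spread of values.

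**Figure D5:**
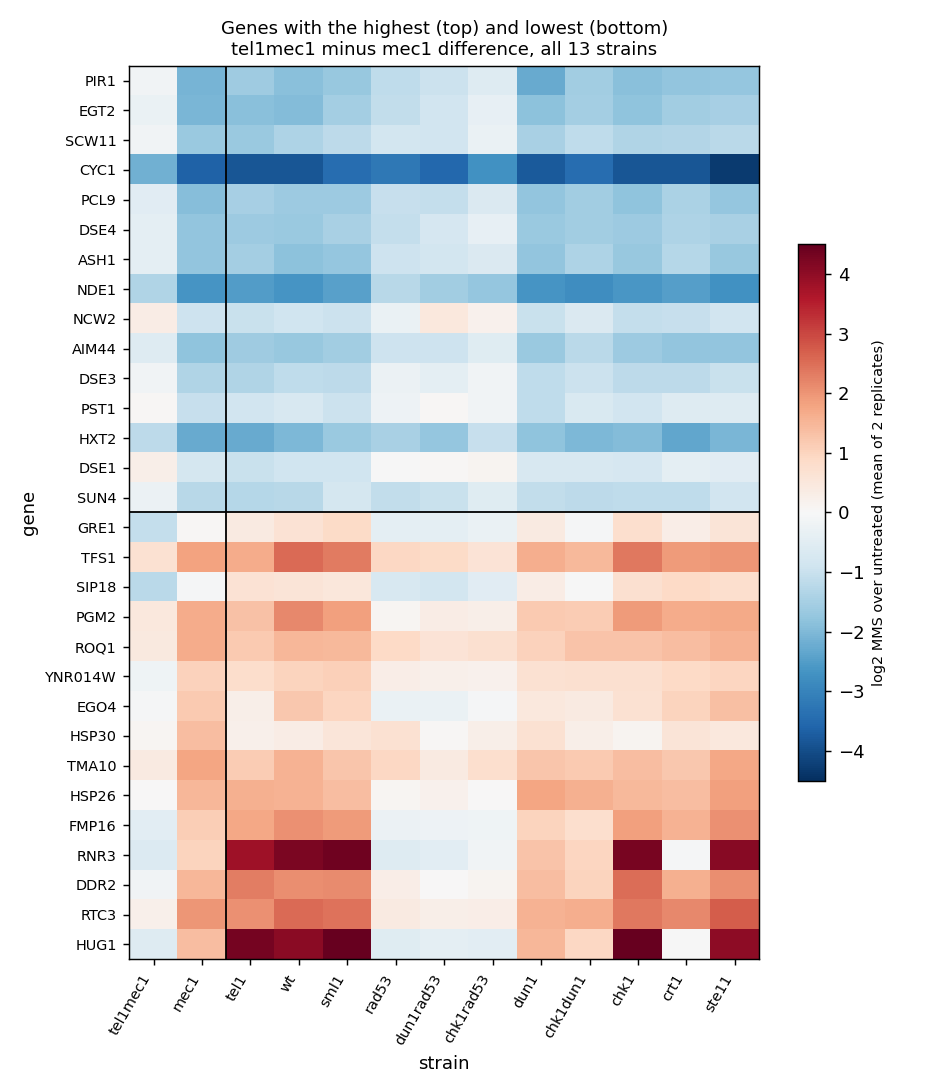
Mean log2 MMS over untreated (2 replicates) in all 13 strains for the 15 genes with the highest (top) and the 15 with the lowest (bottom) called difference between tel1mec1 and mec1, drawn from blue (lower after MMS) to red (higher). In most rows the tel1mec1 column is paler than the mec1 column or of the opposite colour, as in EGT2 (-0.28 in tel1mec1 and -2.07 in mec1) and HUG1 (-0.58 and 1.39).

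The place of the called genes along the chromosomes is given from gene order, with no test. Of the 37 higher genes 2, or 5.41%, were among the outermost 10 annotated genes of a chromosome end, as were 8 of the 96 lower genes, or 8.33%, and 5.72% of all genes. Seripauperin and COS genes are families near the ends whose members are nearly identical, so that probes of such genes may pick up several members. Over all genes 1.72% were called lower. By symbol, 4 of 24 seripauperin genes were called lower, PAU7 (-0.70), PAU2 (-0.44), PAU11 (-0.40) and PAU12 (-0.37), and 0 of 12 COS genes, with median differences of -0.32 and 0.0071. Of the 4, PAU11 and PAU12 were not in the list drawn in the plot of gene lists, which had 2 of 25 called. Among genes that are direct neighbours, 3 pairs were called in the same direction (XBP1 with SGA1, YIR016W with MET28 and MDJ2 with EGT2) and 1 pair in opposite directions (NQM1 with RME1).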

How the data were processed

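The authors deposited 1 normalized log2 ratio of Cy5 over Cy3 per probe and array, made with limma per the submitters' processing notes. Base 2 is assumed, and the centring is not given in the sources used here. Per the labels, RNA was enriched for poly(A). Ratios with MMS in Cy3 were turned by -1; as deposited, opposite dyes correlated at -0.735 to -0.698 in tel1mec1 and -0.858 to -0.742 in mec1. Medians of the 8 turned arrays lay between -0.0033 and 0.025. Of 6269 probes, 5620 with 1 symbol gave 5594 genes (probes of 25 genes averaged) and 649 without were left out. Another 20 arrays, in a separate table, were not used. Intensities were not analysed here, so dim probes were not filtered.

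All 13 strains were fitted together on 26 strain-replicate means (13 residual and 6.57 prior degrees of freedom) with limma 3.58.1 in R 4.3.3. Calls needed an adjusted p under 0.05, by Benjamini-Hochberg over all genes. On simulated data with 5594 genes, 57% of changes of 0.5 and 99% of changes of 1 in log2 were recovered for tel1mec1 minus mec1, with 9 false among 165 calls. The simulated noise was normal and independent between replicates, with no slide effect and no array that stood apart. The rates therefore hold for that setting only. Genes named are the 15 highest and 15 lowest called differences with replicates apart, 5 each way of the difference of differences, list members and deleted genes; YKL070W, DUG3 and the neighbour pairs were named after their values were seen. The comparison and the 30 gene lists were chosen with earlier results of these data known. List members without a match were not analysed here. Names and gene order come from NCBI RefSeq; the arrays name no build. As a check of pairing, replicate 1 deviations of tel1mec1 and mec1 correlated at -0.016 across genes. Alternatives covered the spread estimate, dye, slide, replicate block, single arrays and replicates, scaling, probes and eBayes.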

Additional observations from a re-analysis of the deposited data

Results flagged for a closer look

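The mec1 replicate 1 array with MMS in Cy5 had an SD over genes of 0.607, far from the other 3 mec1 arrays. Its single-gene values lay far from the other mec1 arrays in FMP16 (2.01), EGO4 (2.73), YNR014W (2.19) and PGM2 (2.75). The mec1 replicate 2 array with MMS in Cy3 did so in ASH1 (-1.56). Among the tel1mec1 arrays, replicate 1 with MMS in Cy3 stood apart in DSE3 (0.093), HUG1 (-0.80) and RNR3 (-0.91). Of 60 groups of 4 arrays examined for the named genes 8 met the criterion, and chance alone gives about 1 in 20. Why these arrays differ was not tested.

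The effect of losing Tel1 differed between cells without and with Mec1 in the test of the difference itself for HUG1 (-2.21), DAN1 (-2.14), FIT2 (-1.54), SIP18 (-1.22), RNR3 (-1.20) and TIS11 (-1.13). It differed in the other direction for SCW11 (1.79), EGT2 (1.72), PIR1 (1.69), DSE3 (1.38), NCW2 (1.37), DSE4 (1.32), PCL9 (1.26), RME1 (1.21), DSE1 (1.16), NIS1 (1.05), ASH1 (0.98), AMN1 (0.98) and SIC1 (0.82). TIS11 encodes a protein that destabilises messenger RNAs in iron shortage. The genes named here are not all of the 22 called in that test, 14 higher and 8 lower. Several of their calls were lost in some alternatives, as given in the results.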

How the results depend on the processing

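The 133 calls between tel1mec1 and mec1 were 213 on single arrays with the array pair as a random block, 74 with a fixed slide block added (where the correlation within pairs was estimated at -0.93), 3 with the fixed slide block alone, 83 without the mec1 replicate 1 array with MMS in Cy5, 84 without 3 arrays that stand apart, 11 with MMS in Cy5 alone, 17 with MMS in Cy3 alone, and 28 to 230 leaving out 1 replicate, lowest without mec1 replicate 1 and highest without mec1 replicate 2. With tel1mec1 replicate 1 or 2 left out they were 55 and 30; a lone replicate is assumed to vary like the other strains. All 133 kept their sign in every alternative but the fixed slide block with the array pair, where 132 did. In all 133 both tel1mec1 replicates lay beyond both mec1 replicates, so leaving out 1 replicate could not change a sign. Fits that changed only the spread estimate left the differences as they were. The kept signs, here and for the named genes below, were thus largely fixed by the selection and are no check. The 22 calls of the difference of differences were 9 with its 4 strains alone, 39 with the array pair as a random block, 0 and 1 with MMS in Cy5 and Cy3 alone, 46 with equal spread, 39 with quantile normalization, and 7 to 30 leaving out 1 replicate. Genes called in tel1mec1 (1789) were 416 and 744 with MMS in Cy5 and Cy3 alone and 540 to 1012 leaving out 1 replicate; in mec1 (2455) they were 1404, 941 and 973 to 1837. Why the counts moved was not tested beyond the smaller number of arrays. Over the 30 named differences and 20 alternatives each, 467 values kept their call, 133 lost it and none changed direction.

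With the replicate number as a block, 121 genes were called between tel1mec1 and mec1, 119 of them shared with the 133, and 20 in the difference of differences; it ended 14 of the 133 calls, among them MF(ALPHA)2 (adjusted p 0.0515 in limma), ARO1 (0.0593), PAU2 (0.064) and SGA1 (0.0626), with the same differences. The samples share only a number. The fixed slide block could not be fitted for the difference of differences, since the tel1 arrays lie on slides of their own, and was not run for the responses.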

Other observations

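A few further genes of metabolic and mating lists passed the test, beside 0.661% of all genes called higher and 1.72% called lower. In the iron list (22 members, median difference -0.08) HMX1, a heme oxygenase, was higher by 0.74 and TIS11 lower by 0.79 in tel1mec1 than in mec1. HMX1 averaged -0.37 ± 0.05 in tel1mec1 and -1.11 ± 0.19 in mec1, so it fell less, and TIS11 averaged 0.60 ± 0.01 in tel1mec1 and 1.39 ± 0.23 in mec1, so it rose less (SD, n = 2 each). Of 23 methionine and sulfur genes 2 were lower, MET3, an enzyme of sulfate assimilation (-0.59), and MET28, a regulator of the pathway (-0.56). Of 41 amino acid genes of Gcn4 1 was lower, ARO1 (-0.56), while ARG1 had a larger difference of -1.28 that was not called (limma adjusted p 0.46). PHM8 was lower (-0.81) as 1 of 19 phosphate genes.

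In the pheromone and MATa list 1 of 26 was higher, BAR1, the protease that degrades alpha factor (0.53), and the list median was 0.22. FAR1, the pheromone-induced cell cycle inhibitor, had 0.59 and missed the threshold with a limma adjusted p of 0.059. MF(ALPHA)2 averaged 1.18 ± 0.20 in tel1mec1 and 0.51 ± 0.08 in mec1 and was the 1 of 4 MATalpha genes called. Meiosis genes (0 of 17) and ergosterol genes (0 of 25) had median differences of -0.01 and 0.16. Of the genes called in these lists, HMX1, TIS11, MET3, MET28, ARO1, PHM8, BAR1 and MF(ALPHA)2, none was called without mec1 replicate 1 or without either tel1mec1 replicate.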
